A study of Mus musculus with 9 samples.

Results

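Gene expression after 1 h with TNF-α was compared between Trap-80 knock-down and wild-type 3T3 cells, mouse embryonic fibroblasts that divide without limit in culture. The comparison takes 6 of the 9 arrays of the series, chosen by their titles. The wild-type group consisted of 3 arrays of 3T3 cells that carried an irrelevant small hairpin RNA (shRNA) and received 5 ng/ml TNF-α, and the knock-down group of 3 arrays of cells with a stable shRNA against Trap-80 and the same treatment. The remaining 3 arrays, of wild-type cells without TNF-α, entered the estimate of the spread, and their means are given below as resting levels. The knock-down lines are clonal, with 1 clone per shRNA kept for later experiments, so an effect of the knock-down and a property of 1 clone cannot be told apart. The 9 arrays include none of the knock-down at rest. A difference already present before TNF-α and a difference in the response to TNF-α therefore cannot be told apart either. Levels are log2 signals from the RMA method, in which a difference of 1 is a doubling of the signal. Of the 35557 probe sets deposited, the 23410 paired with an annotated gene were tested, and they gave 19938 genes with a probe set of their own.

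Trap-80, the product of *Med17*, is a subunit of the head of Mediator, the large complex that passes signals from DNA-bound activators to RNA polymerase II. TNF-α is a cytokine that activates the transcription factor NF-κB, and the study asked how far the genes switched on by TNF-α depend on this subunit. Mediator serves many other activators too, among them nuclear receptors, the ETS factors downstream of MAP kinases and the factors of the TGF-β and Wnt pathways, so a change in one of its subunits can in principle reach genes outside the NF-κB programme.

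The targeted transcript was low in each knock-down array. *Med17* lay at 7.98, 7.93 and 7.77 in the stimulated wild-type arrays and at 6.35, 6.22 and 6.17 in the knock-down arrays, so the groups stood apart and 32% of the wild-type signal was left (difference -1.64, standard error 0.09, adjusted p = 4.8e-05 from limma; p = 0.1 in a two-sided exact permutation test, which cannot go lower with 3 arrays per group). The 32% is a share of the array signal, which was not converted to an amount of transcript. The paper reports a deeper reduction of the mRNA by quantitative PCR and no detectable protein by western blotting. The labelled cell type was checked on 10 fibroblast markers, whose median level was 9.59 in both groups. Their summed level ran from 14.4 to 14.61 in wild type and from 14.4 to 14.58 in the knock-down, and the marker *Fap* lay at 2.41 and 2.36. Among these markers *S100a4* rose by 0.55 (adjusted p = 0.011), and *Thy1* rose and *Pdgfra* fell, as described below. None of 8 epithelial, 8 macrophage, 8 endothelial, 6 skeletal muscle, 5 adipocyte and 5 neuronal or glial defining markers passed the test. *Msln* was the only 1 of 7 mesothelial markers that did, and the summed level of that list ran from 6.81 to 7.18 in wild type and from 8.22 to 8.41 in the knock-down. The other 6 mesothelial markers differed by -0.39 to 0.04, 5 of them below 0. In cultured cells measured in bulk, a change in the share of cells that express a gene and a change in the RNA per cell cannot be told apart.

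More genes rose than fell. At an adjusted p under 0.05, 706 genes were higher in the knock-down, which is 3.54% of the genes tested, and 553 were lower, which is 2.77%. The raised genes moved less far than the lowered genes. The median raised gene stood 0.58 above wild type, and 113 of the 706 (16%) were at least 2-fold higher, whereas the median lowered gene stood 0.66 below and 137 of the 553 (24.8%) were at least 2-fold lower. A change of at least 4-fold was reached by 13 raised and 23 lowered genes. The knock-down and stimulated wild-type arrays did not overlap in any of the 706 raised or 553 lowered genes. A lack of overlap in a called gene below therefore adds nothing to its call. The raised genes had a median level of 6.80 in wild type and 7.48 in the knock-down, and the lowered genes went from 7.37 to 6.52. Calls of both kinds were rare among dim probe sets. Of the 4985 genes with a mean up to 3.39 over the arrays 0.12% were raised, against 6.34% of the 4985 genes with a mean of 7.26 or more. With each array centred on its median, 68.8% of the called probe sets were higher (1000 higher, 454 lower), against 56.3% on the deposited values (786 higher, 609 lower). With the replicate number as a block, 1044 genes were raised and 866 lowered. Of the 354 named genes past the threshold, only *Canx*, *Mnat1*, *Nrg2*, *Ndufb6* and *Msx1* lost their calls with this block. Without wild-type array 1 the count of called probe sets fell from 1395 to 738, without wild-type array 2 to 851, and without knock-down arrays 1, 2 and 3 to 922, 850 and 839.

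**Figure D1:**
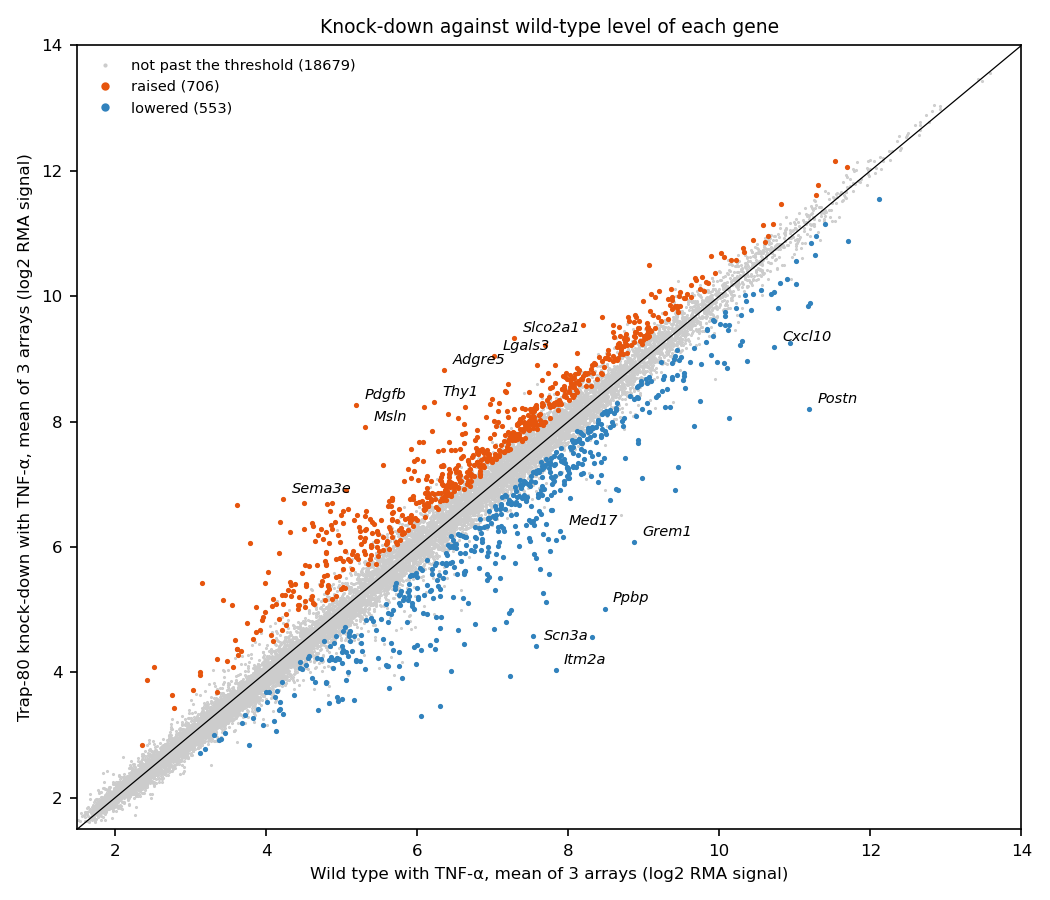
Mean log2 RMA signal of each of the 19938 genes over 3 stimulated wild-type arrays (horizontal) and 3 stimulated Trap-80 knock-down arrays (vertical), with equal levels on the diagonal. The 706 raised genes (orange) lie above the diagonal and the 553 lowered genes (blue) below it, the lowered ones reaching farther from it.

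Where 3 values of a group are given for a gene below, they are those of replicates 1, 2 and 3 in that order. The gene with the largest increase was *Pdgfb*, which encodes one chain (B) of the fibroblast mitogen PDGF, the platelet-derived growth factor. Its levels were 5.09, 5.22 and 5.26 in wild type and 7.81, 8.15 and 8.84 in the knock-down (difference 3.07, standard error 0.21, adjusted p = 0.00011). The lowest knock-down array thus stood well above the highest wild-type array, and the resting mean was 4.51. *Sema3e*, a secreted semaphorin that guides axons and vessels through a plexin receptor, lay at 4.32, 4.11 and 4.25 in wild type and at 6.58, 6.72 and 6.99 in the knock-down (difference 2.54, standard error 0.11, adjusted p = 1.7e-05). *Adgre5* encodes the adhesion receptor CD97. It measured 6.41, 6.46 and 6.20 in wild type against 8.88, 8.82 and 8.78 in the knock-down (difference 2.47, standard error 0.09, adjusted p = 9.4e-06).

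Further genes among the 20 largest increases encode proteins of the cell surface. *Msln*, the surface glycoprotein mesothelin, lay at 5.23, 5.77 and 4.94 in wild type and at 7.81, 8.06 and 7.87 in the knock-down (difference 2.60, adjusted p = 0.00036). *Mcam*, a cell adhesion molecule of the immunoglobulin family, went from 6.08, 6.05 and 6.13 to 8.14, 8.02 and 8.55 (difference 2.15, adjusted p = 9.5e-05). *Thy1*, a surface protein used as a fibroblast marker, went from 5.92, 6.38 and 6.35 to 8.45, 7.96 and 8.52 (difference 2.09, adjusted p = 0.00048). The knock-down arrays lay above the wild-type arrays in all 3 genes, as the choice of the 20 required. The resting means (5.50, 6.03 and 6.12) were close to the stimulated wild-type means (5.31, 6.09 and 6.22). *Slco2a1*, the prostaglandin transporter, rose from a mean of 7.29 to 9.33 (adjusted p = 0.0015), *Kcnmb1*, the β subunit of a calcium-activated potassium channel known from smooth muscle, from 3.15 to 5.43 (adjusted p = 0.00048), and *Htr1b*, a serotonin receptor, from 4.81 to 6.69 (adjusted p = 0.00045). *Lgals3*, which encodes the galactose-binding lectin galectin-3, rose from 7.02 to 9.05 (adjusted p = 0.00024), and *Lama5*, a laminin chain of basement membranes, from 5.06 to 6.91 (adjusted p = 2.7e-05).

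Most of the others of these 20 act inside the cell. *Etv1*, an ETS transcription factor, rose from a mean of 4.32 to 6.24, and its other probe set from 3.41 to 4.69 (adjusted p = 0.0058). *Spry4*, an inhibitor of receptor tyrosine kinase signalling, rose by 1.79, *Prex2*, an exchange factor for Rac, by 1.83, and *Arhgap18* by 1.76. *Zdhhc15*, a palmitoyltransferase, rose by 1.78, *Dglucy*, a mitochondrial glutamate cyclase, by 2.20, and *Tcim* and *Cfap20dc* by 2.21 and 3.05. Adjusted p was at most 0.0026 in these 8 genes. The gene that completes the 20 is a predicted gene. The smallest of the 20 differences was 1.76, and the next gene stood at 1.73. Each of the 19 named genes kept its call in every fit without 1 array.

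**Figure D2:**
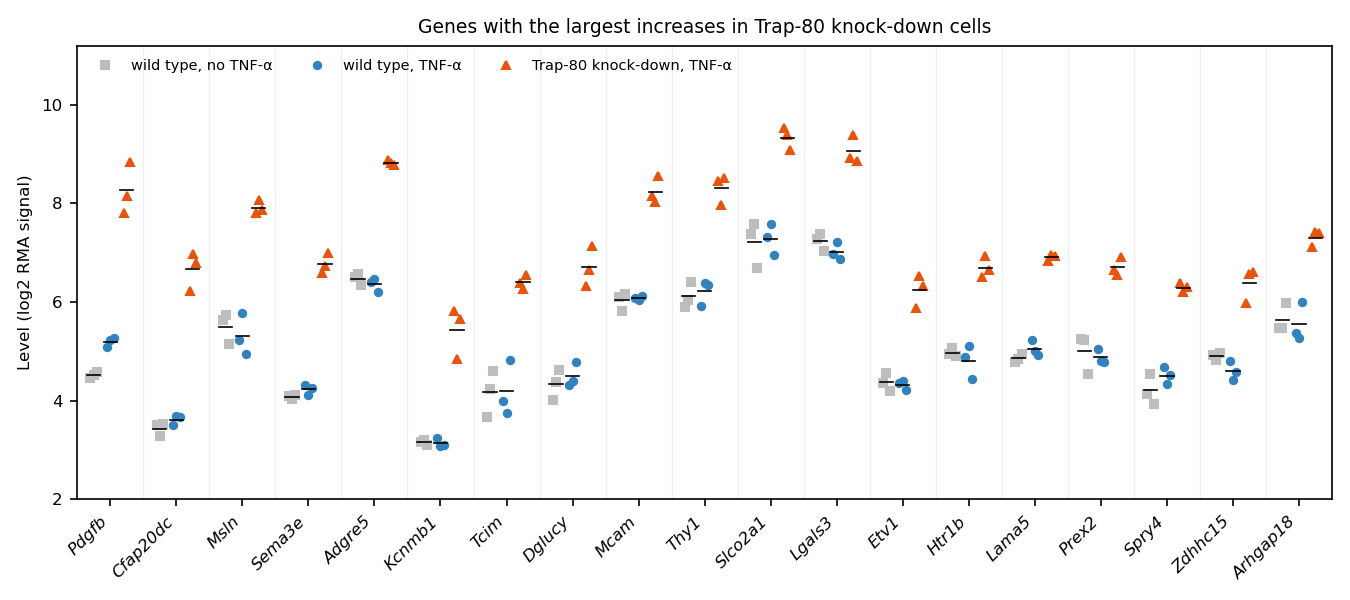
Log2 RMA signal of the 19 named genes with the largest increases, 1 point per array, for wild-type cells without TNF-α (grey squares), wild-type cells with TNF-α (blue circles) and knock-down cells with TNF-α (orange triangles), with black bars at the means of 3 arrays. The orange points lie above all blue points in each gene, as the choice of these genes required, and the grey points lie near the blue.

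The promoters of raised genes are shown to let the reader see what such start sites look like, 250 bases before to 50 bases after the start, from RefSeq on GRCm38.p6, 5′ to 3′ along the gene. They belong to the 4 largest increases that have an entry in the table used. Capitals mark matches, on either strand, to a TATA box (TATAAA), an AP-1 site (TGANTCA), a cAMP response element (TGACGTCA), the box named for its letters CCAAT, the GC box with the letters GGGCGG, a κB site (GGGA and TTCC with any 2 bases between them), an E-box (CACGTG) or a TEAD site (GGAATG).
Cfap20dc (chr14:8666241-8666540, minus strand): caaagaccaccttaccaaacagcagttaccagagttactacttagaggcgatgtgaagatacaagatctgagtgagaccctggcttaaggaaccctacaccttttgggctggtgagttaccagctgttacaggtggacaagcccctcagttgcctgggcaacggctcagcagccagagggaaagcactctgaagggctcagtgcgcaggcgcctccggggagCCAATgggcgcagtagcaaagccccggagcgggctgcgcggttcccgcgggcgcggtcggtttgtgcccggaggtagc
Sema3e (chr5:14025026-14025325, plus strand): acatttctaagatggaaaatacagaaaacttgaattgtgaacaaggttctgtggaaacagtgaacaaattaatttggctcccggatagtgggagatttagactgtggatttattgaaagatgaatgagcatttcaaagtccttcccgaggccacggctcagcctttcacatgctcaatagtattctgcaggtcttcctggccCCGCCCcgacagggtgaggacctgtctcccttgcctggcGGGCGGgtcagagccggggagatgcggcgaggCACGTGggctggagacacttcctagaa
Kcnmb1 (chr11:33962763-33963062, plus strand): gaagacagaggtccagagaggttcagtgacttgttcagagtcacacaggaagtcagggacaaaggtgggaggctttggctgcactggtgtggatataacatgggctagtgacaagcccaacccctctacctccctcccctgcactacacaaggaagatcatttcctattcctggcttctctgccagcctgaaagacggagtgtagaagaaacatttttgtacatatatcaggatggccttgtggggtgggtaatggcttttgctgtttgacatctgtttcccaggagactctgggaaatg
Dglucy (chr12:100778807-100779106, plus strand): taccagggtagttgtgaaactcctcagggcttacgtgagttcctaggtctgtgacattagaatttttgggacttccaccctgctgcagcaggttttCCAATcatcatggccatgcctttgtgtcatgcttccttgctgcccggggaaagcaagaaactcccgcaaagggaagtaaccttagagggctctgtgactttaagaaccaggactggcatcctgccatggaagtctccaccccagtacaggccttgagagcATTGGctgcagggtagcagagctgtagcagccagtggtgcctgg
The *Sema3e* window holds 2 GC boxes and 1 E-box, the *Dglucy* window 2 CCAAT boxes and the *Cfap20dc* window 1, and none of the motifs is found in the *Kcnmb1* window. A κB match was in 2.11% of the 758 windows of raised genes (568 of 706 genes have one), in 1.76% of the 569 windows of lowered genes and in 1.41% of the 19177 windows of all genes tested. An AP-1 match was in 8.31%, 6.68% and 6.9%, and a TEAD match in 14.9%, 11.1% and 13.2%. Over the genes at or above the median wild-type level the shares were 1.37% for κB, 4.6% for AP-1 and 11.6% for TEAD. GC boxes were in 66.5% of the windows of raised genes and 56.9% of those of lowered genes. Their share was 49.2% over all genes tested and 65.4% over those brighter genes. A match describes these letters only, and the shares were not tested.

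Growth factor genes and their receptors contributed several of the large increases. The counts of each list below stand against 3.54% raised and 2.77% lowered over all genes. The lists were chosen with earlier results of these data known, so a share above these is a description and not a test of the list. Of the 4985 genes with a mean of 7.26 or more, 6.34% were raised and 4.99% lowered. Of 17 measured ligands and receptors of the PDGF and VEGF families, 4 rose and 1 fell, and the median difference of the list was 0.04, against -0.02 over all genes. Besides *Pdgfb*, the A chain gene *Pdgfa* rose from 6.34, 6.46 and 6.31 to 6.83, 6.98 and 6.93 (difference 0.55, adjusted p = 0.0038). *Flt1*, a receptor for VEGF, rose by 1.37 (adjusted p = 0.0015), and *Nrp1*, a receptor shared by VEGF and class 3 semaphorins, by 0.95 (adjusted p = 0.0028). The receptor that binds the A chain moved the other way. *Pdgfra* lay at 8.95, 8.96 and 9.03 in wild type and at 7.38, 6.82 and 7.09 in the knock-down (difference -1.89, standard error 0.12, adjusted p = 9.5e-05), with no overlap, while *Pdgfrb*, the main receptor for the B chain, differed by 0.14 (adjusted p = 0.76) and was picked after its values were seen. These 5 calls held in every fit without 1 array.

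Among 15 EGF family ligands and receptors 2 rose and none fell. *Hbegf*, a heparin-binding ligand of the EGF receptor, lay at 7.94, 7.90 and 7.23 in wild type and at 9.48, 9.17 and 9.03 in the knock-down (difference 1.54, standard error 0.30, adjusted p = 0.016), without overlap although wild-type array 3 was low. Its call was lost without knock-down array 1 or 2 (adjusted p up to 0.07) and held with the replicate block (adjusted p = 0.00094). That of *Nrg2*, a neuregulin that differed by 0.29, was lost with the replicate block (adjusted p = 0.055) or when any array except wild-type array 3 was left out (adjusted p up to 0.16). *Kitl*, the ligand of the receptor Kit, rose by 1.10 (adjusted p = 0.00048) and *Mertk*, a receptor for ligands on dying cells, by 1.10 (adjusted p = 0.0011). In their list of 25 other receptor tyrosine kinases and ligands 2 genes rose and 4 fell, the latter led by *Ror2* at -1.45 (adjusted p = 0.0021) and *Ptk7* at -1.34 (adjusted p = 0.00063), both receptors of Wnt signalling. With the replicate block 4 genes of that list rose and 6 fell.

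The TGF-β and BMP list was split. Of 51 measured ligands, receptors and antagonists 5 rose and 7 fell, with a median of -0.06. The raised genes were mostly ligands. *Bmp4* went from 5.82, 5.98 and 5.96 to 7.48, 7.45 and 7.76 (difference 1.65, standard error 0.10, adjusted p = 5.5e-05), *Tgfb1* rose by 0.78 (adjusted p = 0.0068) and *Inhbb*, an activin chain, by 0.75 (adjusted p = 0.0048). *Fstl3*, which binds activin, rose by 0.85 (adjusted p = 0.0037). Antagonists of BMPs were among the lowered genes. *Grem1*, or gremlin, fell from 9.02, 9.06 and 8.54 to 6.11, 6.08 and 6.06 (difference -2.79, adjusted p = 0.00024) and *Chrdl1*, a chordin-like protein, fell by 1.86 (adjusted p = 0.00025). *Id4* (-1.47) and *Smad6* (-0.76), which are known as BMP-induced genes, were lower as well (adjusted p = 0.00048 and 0.0027). The calls of these 8 genes held in every fit without 1 array. The other raised member, *Smad3*, at 0.61, lost its call when any array except wild-type array 3 was left out (adjusted p up to 0.14).

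Genes for dual-specificity phosphatases and for inhibitors of the Ras pathway were also among the raised. Dual-specificity phosphatases remove phosphates from MAP kinases and other substrates. Of 16 measured, 6 rose and none fell, their median was 0.50, and the knock-down arrays lay above the wild-type arrays without overlap in 10 (11.1% of all genes did so). *Dusp18* went from 5.14, 5.03 and 4.91 to 6.41, 6.95 and 6.34 (difference 1.54, adjusted p = 0.00071), *Dusp14* from 7.36, 7.35 and 7.14 to 8.12, 8.36 and 8.13 (difference 0.92, adjusted p = 0.00094), and *Dusp3* from 5.87, 5.60 and 5.39 to 6.39, 6.89 and 6.68 (difference 1.03, adjusted p = 0.0083). In each of the 3 the groups stood apart, as in every raised gene. *Dusp4*, a nuclear MAP kinase phosphatase, differed by 1.18, but its wild-type arrays ran from 4.74 to 5.66 and its call (adjusted p = 0.049) was lost when any 1 of the 6 arrays was left out (adjusted p up to 0.16). The fit with the replicate block gave *Dusp4* an adjusted p of 0.0018. The call of *Dusp9* (0.66) was lost without knock-down array 1 or 2 (adjusted p up to 0.076) and that of *Dusp22* (0.61) when any array except knock-down array 1 was left out (adjusted p up to 0.13). The count of raised phosphatases was 3 without knock-down array 2 and at most 4 when any 1 array was left out.

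*Spry4*, whose levels were 4.68, 4.33 and 4.51 in wild type and 6.38, 6.20 and 6.30 in the knock-down (adjusted p = 0.00039), belongs with the Spred genes to the inhibitors of the Ras pathway. Of 29 FGFs, receptors and Sprouty family genes 3 rose and 1 fell. *Spred3* (0.63, adjusted p = 0.017) and *Spred1* (0.42, adjusted p = 0.026) were the other raised genes, but *Spred3* was lost without wild-type array 2 or knock-down array 1 or 2 (adjusted p up to 0.067), where the count was 1, and *Spred1* when any array except wild-type array 3 was left out (adjusted p up to 0.093). The lowered gene was *Fgf10*, a ligand made by mesenchyme, at -1.59 (adjusted p = 0.0039). Of 38 genes with symbols starting Ptpn or Ptpr, most of them protein tyrosine phosphatases, 5 rose and none fell, led by the receptor-type *Ptprk* (0.62, adjusted p = 0.0039) and *Ptpn21* (0.56, adjusted p = 0.0079). That count was 9 with the replicate block and 2 without wild-type array 2, knock-down array 1 or knock-down array 2. Of 30 immediate-early genes, the first to respond to growth factors, *Arc* (1.00, adjusted p = 0.0095) and *Ier5* (0.67, adjusted p = 0.0074) rose and *Cebpb* fell (-0.69, adjusted p = 0.0085). The shares raised and lowered in that list were 6.67% and 3.33%.

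**Figure D3:**
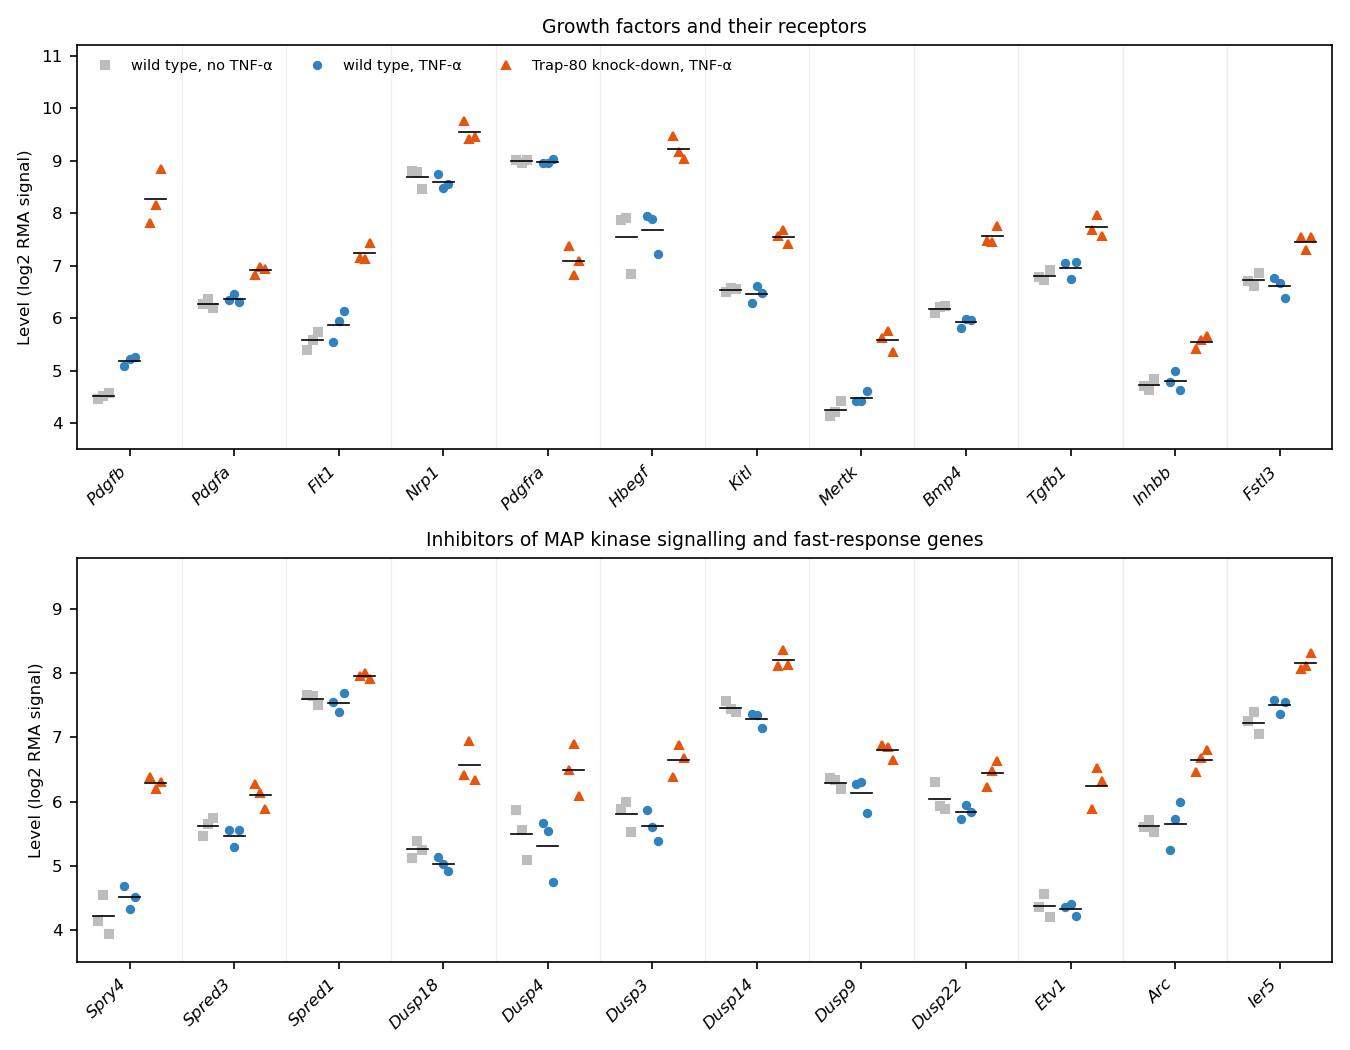
Log2 RMA signal per array of growth factor, receptor, phosphatase and inhibitor genes that passed the test, and of Etv1, Arc and Ier5, which passed too. The phosphatases are grouped by family, and their action on MAP kinases was not measured. Grey squares mark wild-type cells without TNF-α, blue circles wild type with TNF-α and orange triangles the knock-down with TNF-α. Black bars lie at the means of 3 arrays. The orange points lie above the blue in each gene but Pdgfra, whose mean falls from 8.98 to 7.10.

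Genes of the semaphorin family moved in both directions. Of 29 semaphorins and plexins 6 rose and 2 fell, 12 had a positive difference and the median was -0.12. The knock-down arrays lay above the wild-type arrays without overlap in 6 genes and below them in 6. Over all genes these shares were 11.1% and 10.4%. After *Sema3e*, the largest increase was that of *Sema7a*, a membrane-anchored semaphorin that binds integrins, from 5.54, 5.45 and 5.28 to 6.48, 6.12 and 6.51 (difference 0.95, adjusted p = 0.0047). It was also higher in wild type with TNF-α (mean 5.42) than at rest (mean 4.82), which was not tested here. *Sema3a*, a repellent of axons, lay higher by 0.84, but its call was lost without wild-type array 1 or 2 or knock-down array 1 or 3 (adjusted p up to 0.08), and without either of those wild-type arrays 2 genes of the list rose. The related *Sema3c* fell from 7.78, 7.95 and 8.12 to 7.05, 6.80 and 7.16 (difference -0.95, adjusted p = 0.0037). Ephrins and their receptors, a second family of contact signals, moved in both directions. *Epha7* rose from 4.57, 4.47 and 5.13 to 6.11, 6.22 and 6.53 (difference 1.57, adjusted p = 0.0017), whereas *Epha4* differed by -1.21 (adjusted p = 0.028) with a call that was lost without wild-type array 1 or 3 or knock-down array 1 or 2 (adjusted p up to 0.11).

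Raised genes were found in several families of adhesion molecules. Of 27 integrins 4 rose and none fell, with a median of 0.04. *Itga3*, the α chain of a laminin receptor, went from 7.57, 7.52 and 7.66 to 8.74, 9.02 and 8.96 (difference 1.32, standard error 0.09, adjusted p = 0.0001), and *Itga7*, the α chain of another laminin receptor, from 4.78, 4.82 and 4.44 to 5.54, 5.89 and 5.69 (difference 1.03, adjusted p = 0.0023). Both stood apart between the groups, as did every raised gene. The β chains *Itgb5* (0.71, adjusted p = 0.011) and *Itgb3* (0.68, adjusted p = 0.037), parts of separate receptors for vitronectin, rose as well. Neither passed without wild-type array 1 (adjusted p up to 0.052 and 0.13), and *Itgb3* was also lost without wild-type array 2 or any 1 knock-down array. Without wild-type array 1 the count was 2.

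Proteins of basement membranes, the sheets of laminin and collagen IV that such receptors bind, included 7 raised and 3 lowered genes of 23, with a median of 0.14. *Lama5* lay at 5.23, 5.01 and 4.93 in wild type and at 6.84, 6.96 and 6.93 in the knock-down (difference 1.85, standard error 0.09). *Col18a1*, the source of endostatin, rose by 1.07 (adjusted p = 0.0021) and *Ntn4*, a netrin of basement membranes, by 0.68 (adjusted p = 0.0074). The collagen IV chain genes *Col4a1* and *Col4a2*, which lie side by side in the genome, differed by 0.52 and 0.57 (adjusted p = 0.017 and 0.039), but the call of *Col4a1* was lost without wild-type array 2 or 3 or knock-down array 1 or 3 (adjusted p up to 0.067) and that of *Col4a2* when any 1 of the 6 arrays was left out (adjusted p up to 0.12). At most 4 genes of the list rose when any 1 array was left out, and 3 without wild-type array 2 or knock-down array 1. A different laminin chain fell. *Lama4* went from 7.69, 7.43 and 8.13 to 6.06, 4.85 and 5.81 (difference -2.18, adjusted p = 0.0037). *Nid1*, the linker protein nidogen (-1.31, adjusted p = 0.0019), and *Npnt*, the integrin ligand nephronectin (-1.56, adjusted p = 0.0017), were lower without overlap, and these 3 calls held whichever array was left out.

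Tetraspanins, membrane proteins that organise integrins and other receptors into patches, showed 6 raised and 1 lowered of 26. *Tspan12* rose from 4.90, 4.49 and 4.46 to 6.14, 6.56 and 6.28 (difference 1.71, adjusted p = 0.00048), *Tspan15* by 0.97 (adjusted p = 0.0041), *Tspan5* by 0.80 (adjusted p = 0.00043) and *Tspan9* by 0.69 (adjusted p = 0.0022). At least 4 genes of this list rose in each fit without 1 array. Of 36 cadherins and protocadherins 4 rose and 1 fell, with a median of -0.02. The raised *Pcdh9* (6.11, 6.48 and 6.66 against 8.22, 7.99 and 8.16, difference 1.71, adjusted p = 0.00042) and *Pcdh7* (difference 1.12, adjusted p = 0.00029) are protocadherins, and the lowered gene of that list was *Cdh2*, the N-cadherin of mesenchymal cells, at 9.04, 9.05 and 9.11 in wild type against 8.09, 8.17 and 8.21 in the knock-down (difference -0.91, adjusted p = 0.00019). Of 34 genes of epithelial junctions, keratins and epithelial factors 3 rose and 1 fell. *Pkp2*, a plakophilin of desmosomes (0.98, adjusted p = 0.0019), and *Tjp1*, the tight junction protein ZO-1 (0.76, adjusted p = 0.00086), were among the raised, and *Cdh3*, the P-cadherin, which was counted in this list and not with the cadherins above, was the lowered gene (-0.82, adjusted p = 0.0091).

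Adhesion GPCRs, large receptors with long extracellular parts, and leukocyte adhesion molecules each had 4 raised members, of 28 (median -0.05) and of 21 (median 0.07). In the former list *Adgre5* and *Adgrl3* (0.75, adjusted p = 0.012) kept their calls whichever array was left out, and the calls of *Adgra2* (0.63) and *Adgrf5* (0.34) were lost when any array except wild-type array 3 was left out and when any 1 of the 6 arrays was left out (adjusted p up to 0.14 and 0.17). *Adgrl2* fell by 0.66 (adjusted p = 0.012), but its call was lost without wild-type array 1 or knock-down array 1 or 2 (adjusted p up to 0.052), and of its 7 other probe sets 1 passed the test. In the latter list *Mcam* and *F11r* (1.04, adjusted p = 0.0085) rose in every fit without 1 array, while *Nectin3* (0.70) was lost when any 1 knock-down array was left out (adjusted p up to 0.067) and *Pvr* (0.64) when any array except wild-type array 3 was left out (adjusted p up to 0.081), and 2 rose when any 1 knock-down array was left out. *Cd34*, a sialomucin also used as a marker of fibroblast progenitors, fell from 6.44, 6.92 and 6.51 to 4.10, 4.25 and 5.03 (difference -2.16, adjusted p = 0.0014).

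Of 70 genes with symbols of Rab and a number, for GTPases that direct vesicle traffic and for proteins that bind or regulate them, 5 rose (7.14%) and 2 fell (2.86%). The increases were led by *Rab3b* (from 4.91, 4.63 and 4.83 to 6.07, 6.37 and 6.27, adjusted p = 0.00047) and *Rab31* (0.87, adjusted p = 0.0015). *Rab3ip* (0.68, adjusted p = 0.0052) encodes an exchange factor and not a GTPase. Without wild-type array 1 or knock-down array 3 the count raised was 3.

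Contractile and actin-binding genes stood above wild type more often than not. Of 38 measured 29 had a positive difference, the median was 0.13, 5 rose (13.2%) and 1 fell (2.63%). The list is bright, with a median wild-type level of 9.28. Among the 4985 genes with a mean of 7.26 or more, 6.34% rose and 4.99% fell, with a median of 0.030. *Actn1*, the actin cross-linker α-actinin, lay at 9.36 in all 3 wild-type arrays and at 10.12, 10.07 and 10.15 in the knock-down (difference 0.75, adjusted p = 0.00065). *Tpm2*, a tropomyosin, went from 7.92, 7.73 and 8.26 to 8.68, 8.67 and 8.99 (adjusted p = 0.009), and *Fhl1*, a LIM protein, rose by 0.87 (adjusted p = 0.0017). *Actg2*, the smooth muscle γ-actin, differed by 1.60 and the skeletal actin *Acta1* by 0.75, with calls that were lost without wild-type array 1 or 2 or knock-down array 1 or 3 (adjusted p up to 0.065 and 0.09), where 3 genes rose. The count was 8 with the replicate block and 10 with each array centred on its median. The lowered gene was *Csrp2*, another LIM protein, at -0.91 (adjusted p = 0.00048). Genes known as targets of YAP and TEAD, the factors that respond to cell tension, moved in both directions. *Ankrd1* went from 7.11, 6.90 and 7.25 to 8.09, 8.17 and 8.61 (difference 1.21, adjusted p = 0.0054), and the lowered *Foxf2* differed by -1.04 (adjusted p = 0.0047).

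The raised genes with the brightest knock-down signal were *Anxa1*, *Ywhaz*, *Plp2*, *S100a11* and *Msn*. *Anxa1*, an annexin that binds membranes and restrains inflammation, went from 11.45, 11.47 and 11.69 to 12.10, 12.05 and 12.31 (difference 0.62, adjusted p = 0.0056). *Msn*, or moesin, which ties actin to the membrane, went from 10.73, 10.98 and 10.75 to 11.52, 11.49 and 11.39 (difference 0.64, adjusted p = 0.0053), and *Plp2* rose by 0.47 (adjusted p = 0.0096). The groups did not overlap in these 3 genes, as in every raised gene, and both other probe sets of *Plp2* rose by 0.48 and 0.49. The changes of *Ywhaz*, a 14-3-3 protein, at 0.37 and *S100a11*, a calcium-binding protein, at 0.34 lost their calls without wild-type array 1 (adjusted p up to 0.05 and 0.1), and *S100a11* also without wild-type array 2 or knock-down array 2 or 3. The other probe set of *Ywhaz* differed by 0.18 (adjusted p = 0.4) and that of *S100a11* by 0.35 (adjusted p = 0.013).

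**Figure D4:**
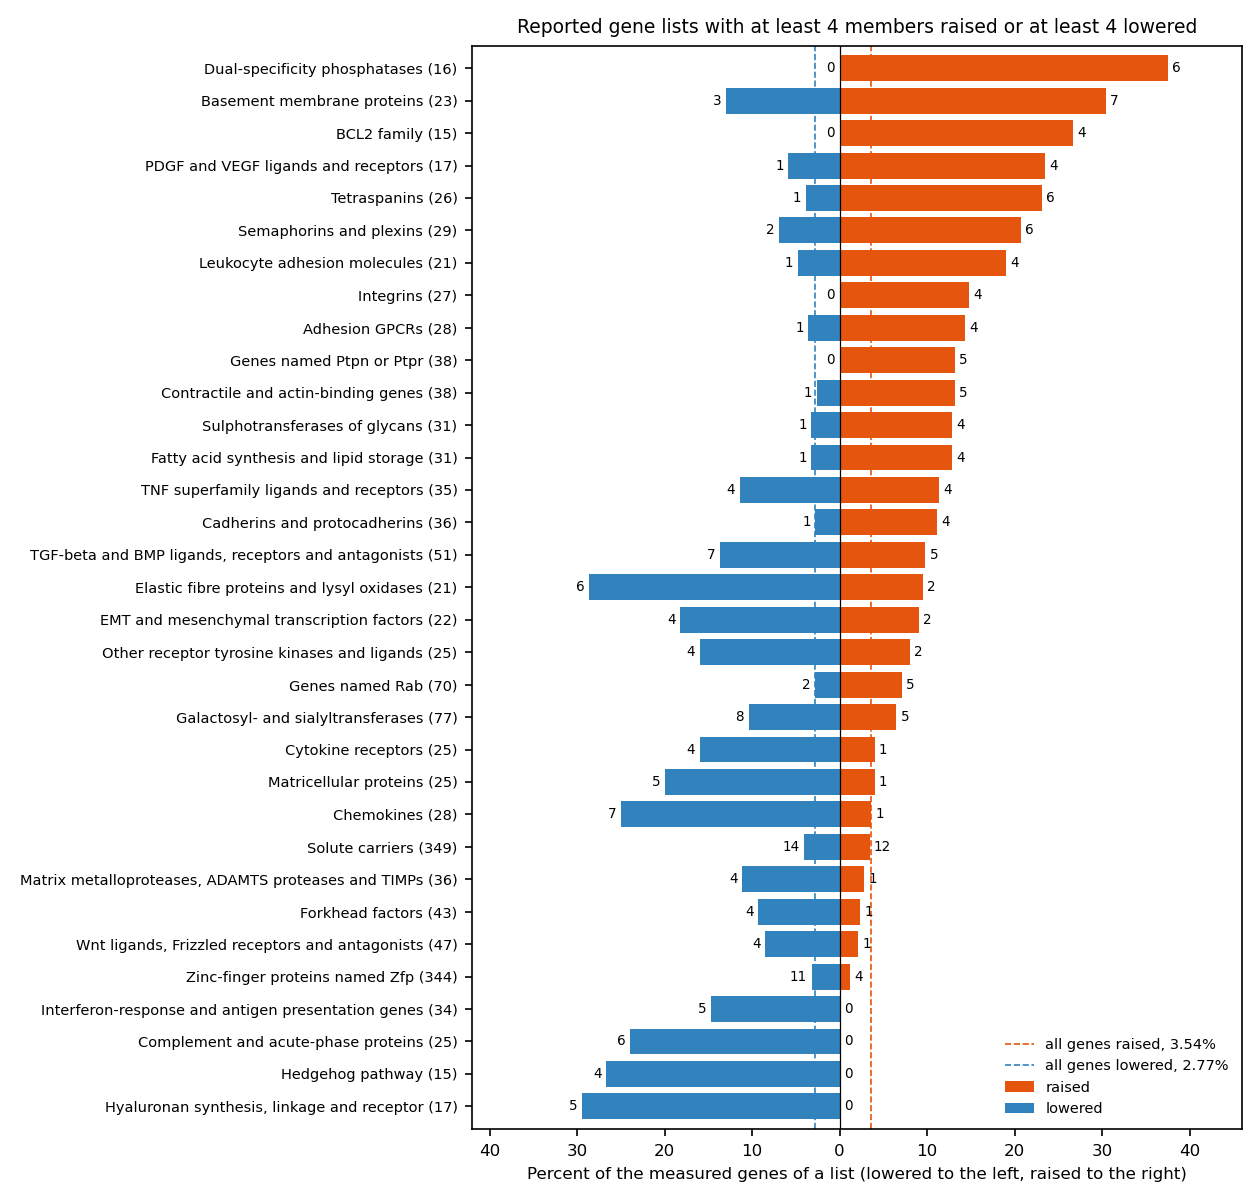
Percent of the measured genes (number in parentheses) that were raised (orange, to the right) or lowered (blue, to the left) in the gene lists reported here with at least 4 members moving one way, with the number of genes at the end of each bar and the share over all genes as dashed lines at 3.54% and 2.77%. The top bars reach 37.5% for dual-specificity phosphatases and 30.4% for basement membrane proteins, and the hyaluronan, elastic fibre and hedgehog bars on the left reach 29.4%, 28.6% and 26.7%.

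Genes of cell survival and of the TNF system itself were among the raised. Of 15 members of the BCL2 family 4 rose and none fell. *Bcl2l11*, the death-promoting Bim, lay at 6.40, 6.18 and 6.34 in wild type and at 7.25, 7.07 and 6.87 in the knock-down (difference 0.75, adjusted p = 0.0041). The survival genes *Bcl2* (0.50, adjusted p = 0.0061) and *Bcl2l1* (0.44, adjusted p = 0.007) were higher by less, and *Mcl1*, at 0.37, lost its call without wild-type array 1 or 2 or knock-down array 1 or 3 (adjusted p up to 0.12). Of 35 ligands and receptors of the TNF superfamily 4 rose and 4 fell. *Tnfrsf1b*, the second receptor for TNF-α, went from 6.23, 6.52 and 6.30 to 7.47, 7.54 and 7.64 (difference 1.20, standard error 0.09, adjusted p = 0.00019), and *Eda2r*, the receptor for an ectodysplasin form, rose by 1.08 (adjusted p = 0.0073). *Tnfrsf11b*, the decoy receptor osteoprotegerin, fell from 8.66, 8.28 and 9.05 to 7.09, 6.62 and 7.02 (difference -1.76, adjusted p = 0.0013). The death receptor gene *Fas* differed by -1.17 (adjusted p = 0.024), from a wild-type mean of 7.77 that stood above the resting mean of 6.12, and its call was lost without wild-type array 1 or 3 or knock-down array 1 or 2 (adjusted p up to 0.084). Without wild-type array 1 or knock-down array 1 or 2 the list had 2 lowered genes, and with the replicate block 7 raised and 5 lowered.

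Raised genes were also found in lists for sugar chains, Notch and transcription. Over all genes 3.54% were raised and 2.77% lowered. Of the genes with a mean from 5.02 to 7.26, 6.3% were raised, and of the brighter ones 6.34%. Of 31 enzymes that add or remove sulphate on glycans 4 rose (12.9%) and 1 fell (3.23%), and at least 4 rose in each fit without 1 array. *Ndst3*, an enzyme of heparan sulphate, rose by 1.72 (adjusted p = 0.0037), *Chst1* from 5.20, 5.19 and 5.10 to 6.34, 6.63 and 6.31 (adjusted p = 0.00024), *Chst2* by 0.94 (adjusted p = 0.0058) and *Sulf1*, a sulphatase, by 0.75 (adjusted p = 0.0011). Of 28 Notch pathway genes 2 rose (7.14%) and 1 fell (3.57%), with a median of 0.03. The raised count was 1 without wild-type array 1 or 3 or knock-down array 2 or 3. *Hes1*, a Notch-induced repressor, went from 6.27, 5.72 and 5.90 to 7.32, 7.16 and 7.64 (difference 1.41, adjusted p = 0.0018), while *Rbpj*, the DNA-binding factor of the Notch pathway, fell by 0.46 (adjusted p = 0.0053), with a difference of -0.06 (adjusted p = 0.7) in its other probe set. The HoxB genes *Hoxb2* (0.57, adjusted p = 0.0064), *Hoxb5* (0.51) and *Hoxb9* (0.63) were the 3 raised of 37 Hox genes (8.11%). The calls of *Hoxb5* and *Hoxb9* (adjusted p = 0.022 and 0.026) were lost without wild-type array 2 or 3 or knock-down array 3 (adjusted p up to 0.085 and 0.099), where 1 rose. *Hoxb5* was also lost without knock-down array 1 and *Hoxb9* without knock-down array 2. Of 45 subunits of RNA polymerase II and general transcription factors 3 rose (6.67%) and none fell. None rose without wild-type array 1 or 2 or knock-down array 2 or 3. *Taf9b*, a TFIID subunit, differed by 0.91 (adjusted p = 0.031, up to 0.12 in those fits).

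The lowered genes included proteins of the matrix around cells, in some lists more than in others. Of 31 collagen chains 2 fell (6.45%) and 1 rose (3.23%), and the basement membrane proteins above had more raised than lowered genes. Of 21 elastic fibre proteins and lysyl oxidases 6 fell and 2 rose, with a median of -0.17. *Fbln1*, a fibulin, went from 7.51, 7.48 and 7.75 to 5.57, 6.10 and 5.80 (difference -1.76, adjusted p = 0.00043), and *Fbn2*, a fibrillin, fell by 1.74 (adjusted p = 0.00069). Of 25 matricellular proteins 5 fell and 1 rose. *Tnn*, a tenascin, fell from 7.89, 7.09 and 7.65 to 4.82, 4.62 and 4.31 (difference -2.96, adjusted p = 0.00045). *Postn*, or periostin, had the widest spread of the genes named, with 11.02, 10.78 and 11.78 in wild type and 8.43, 6.57 and 9.58 in the knock-down (difference -2.99, standard error 0.63, adjusted p = 0.024). Its groups did not overlap, but its call was lost when any 1 wild-type array or knock-down array 1 was left out (adjusted p up to 0.076), and without wild-type array 1 or 3 or knock-down array 1 the list had 3 lowered genes. The fit with the replicate block gave *Postn* an adjusted p of 0.0036. Of 17 genes for hyaluronan 5 fell and none rose. *Cemip*, a hyaluronan-degrading protein, differed by -2.33 (adjusted p = 0.017) and *Has2*, the main synthase of fibroblasts, by -1.02 (adjusted p = 0.012). Both calls were lost without knock-down array 2 (adjusted p up to 0.07 and 0.057), that of *Cemip* also without knock-down array 1 and that of *Has2* without knock-down array 3, and 2 genes fell without knock-down array 2.

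Genes for signals and receptors of development were among the lowered too. Of 15 hedgehog pathway genes 4 fell and none rose. *Gas1*, a hedgehog co-receptor, fell by 1.25 (adjusted p = 0.007) and *Gli3*, a transcription factor of the pathway, by 0.44 (adjusted p = 0.0068), while the calls of *Hhip* (-1.31) and *Smo* (-0.49) were lost without wild-type array 2 or knock-down array 1 or 3 (adjusted p up to 0.062 for both), that of *Smo* also without wild-type array 1. Without knock-down array 1 or 3, 2 genes of the list fell. Of 47 Wnt ligands, receptors and antagonists 4 fell and *Fzd6* rose (0.61, adjusted p = 0.0051). *Rspo2*, an enhancer of Wnt signals, fell by 1.71 (adjusted p = 0.00089) and the receptor *Fzd5* by 0.70 (adjusted p = 0.0086). The antagonists *Sfrp1* (-1.78) and *Dkk3* (-1.28) lost their calls without wild-type array 1 or 3 or any 1 knock-down array (adjusted p up to 0.16 and 0.12), where 2 genes fell.

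Chemokines and acute-phase proteins, the classes in which many NF-κB targets lie, were lowered in part. Of 28 chemokines 7 fell and 1 rose. *Cxcl12*, a chemokine made by resting stroma, went from 10.05, 9.88 and 10.47 to 8.17, 7.80 and 8.19 (difference -2.08, adjusted p = 0.00036), from a stimulated wild-type mean of 10.13 that was near the resting mean of 10.28. *Ppbp*, a platelet chemokine precursor, fell from 8.01, 8.61 and 8.82 to 5.35, 5.12 and 4.58 (difference -3.47, adjusted p = 0.00018), also from a like resting mean (8.68). *Cxcl10*, or IP-10, lay at 10.49, 10.45 and 11.23 in wild type, at 8.61, 8.80 and 10.16 in the knock-down and at a mean of 6.70 at rest (difference -1.53, adjusted p = 0.047). Its groups did not overlap, but its call was lost when any array except knock-down array 3 was left out (adjusted p up to 0.16), and 2 chemokines fell without knock-down array 1, at most 4 when any 1 array was left out, and 4 with each array centred on its median. The fit with the replicate block gave *Cxcl10* an adjusted p of 0.018.

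The other genes that the study followed did not pass the test. By quantitative PCR the paper found *Il6*, like *Cxcl10*, no longer expressed without Trap-80, and *Cxcl2* and *Nfkbia* unaffected. For *Il6* the array cannot decide this, because its signal was near the floor in both groups. *Il6* lay at 2.78, 2.76 and 3.36 in wild type and at 2.45, 2.72 and 2.72 in the knock-down (difference -0.34, adjusted p = 0.35), at or below the level of the 4985 dimmest genes (mean up to 3.39). *Cxcl2*, or Mip-2, lay at 5.05, 5.05 and 6.12 and at 5.04, 5.27 and 5.53 (difference -0.13, standard error 0.28, adjusted p = 0.88), and *Nfkbia*, which encodes IκBα, at 10.69, 10.66 and 10.99 and at 10.57, 10.65 and 11.04 (difference -0.03, standard error 0.13, adjusted p = 0.95). The groups overlapped in *Cxcl2* and *Nfkbia*, whose resting means were 3.84 and 8.22. *Ch25h*, a cholesterol hydroxylase of the innate response, lay at 7.13, 7.40 and 8.58 in wild type, at 5.36, 4.67 and 5.36 in the knock-down and at a mean of 3.94 at rest (difference -2.57, adjusted p = 0.0044). Of 25 complement and acute-phase genes 6 fell and none rose, led by *Lcn2*, an iron-scavenging lipocalin, from 6.98, 7.21 and 7.35 to 5.47, 4.84 and 4.09 (difference -2.38, adjusted p = 0.0019). The count of 6 was 10 with the replicate block and 3 without knock-down array 2. *Il1rn*, the natural antagonist of interleukin-1, fell from 9.18, 8.99 and 10.08 to 6.93, 6.60 and 7.21 (difference -2.50, adjusted p = 0.0038).

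The largest decrease of all belonged to *Itm2a*, an integral membrane protein, from 8.29, 7.25 and 7.97 to 3.98, 3.56 and 4.55 (difference -3.80, adjusted p = 0.00047). *Prl2c5*, a proliferin of the prolactin family, fell by 3.75 (adjusted p = 0.0019), *Tmem45a*, a transmembrane protein, by 3.28 (adjusted p = 9.5e-05), *Scn3a*, a sodium channel subunit, by 3.15 (adjusted p = 1.7e-05) and *Mgst1*, a microsomal glutathione transferase, by 2.75 (adjusted p = 0.00048). *Pi15*, a peptidase inhibitor, differed by -2.84 (adjusted p = 0.018), with a call that was lost without wild-type array 1 or knock-down array 1 or 2 (adjusted p up to 0.078). The knock-down means of these 6 genes ran from 3.30 to 4.57, below the median of 5.02 over the tested probe sets.

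**Figure D5:**
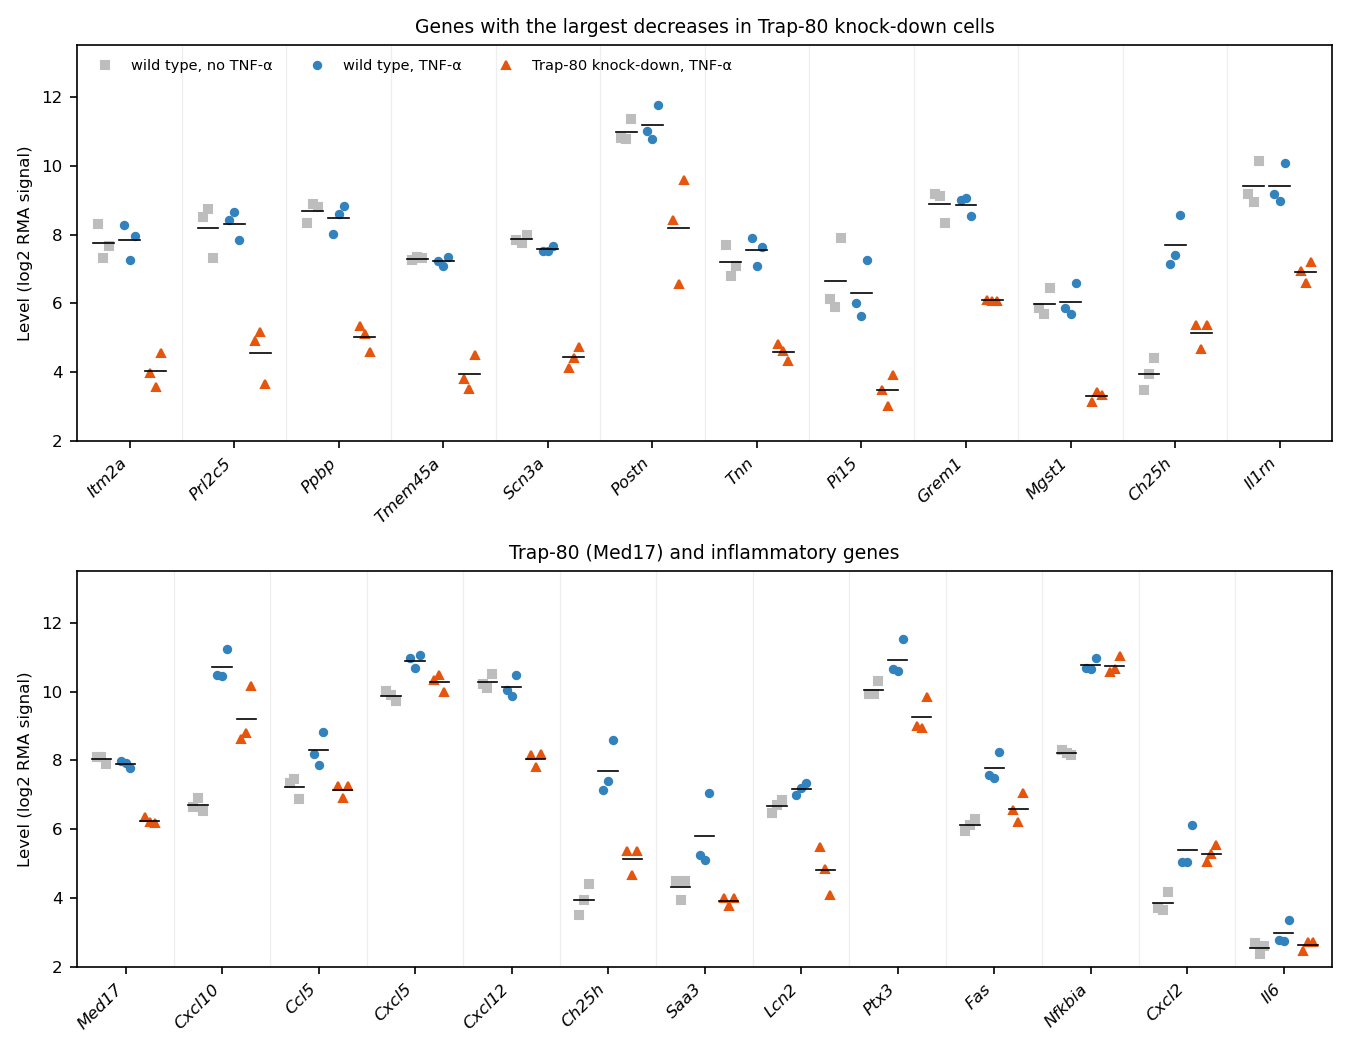
Log2 RMA signal per array of the 12 genes with the largest decreases (top) and of Med17 and inflammatory genes (bottom), with symbols for the groups as named in the legend and black bars at the means of 3 arrays. The orange knock-down points lie below the blue wild-type points except in Cxcl2 and Nfkbia, where they overlap, and in Cxcl10, Ch25h, Nfkbia and Cxcl2 the blue points stand above the grey resting points.

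In groups that every cell uses, the shares of called genes lay on both sides of those over all genes (3.54% raised and 2.77% lowered). Of 44 cell-cycle and DNA replication genes 1 rose (2.27%) and none fell, of 39 proteasome subunits 2 rose (5.13%) and none fell, and of 59 cytosolic ribosomal proteins 2 fell (3.39%) and none rose, with medians of 0.05, 0.04 and -0.01. Of 32 aminoacyl-tRNA synthetases and related genes 3 rose (9.38%) and 1 fell (3.12%), and of 49 splicing factors and hnRNPs 2 rose (4.08%) and 3 fell (6.12%). Of 32 Mediator subunits other than Trap-80, *Med28* rose (0.38, adjusted p = 0.032) and none fell, with a median of 0.07. Of 24 measured NF-κB pathway and feedback genes, *Otud7b* rose (0.39, adjusted p = 0.026) and *Tnfaip3*, the feedback inhibitor A20, fell from a mean of 10.06 to 8.93 (-1.13, adjusted p = 0.0047). These 3 genes were named after their values were seen. No Mediator gene other than *Med17* passed when any array except knock-down array 1 was left out, and no raised NF-κB pathway gene without wild-type array 1 or 3 or knock-down array 2 or 3. Likewise, no cell-cycle gene passed without wild-type array 1 or 2 or knock-down array 2 or 3. The proteasome count was 1 without wild-type array 2 or knock-down array 1 or 2, and the ribosomal count 1 when any array except knock-down array 2 was left out. Over the 111 lists 198 of the 706 raised genes and 198 of the 553 lowered genes belonged to at least 1 list, and 8 lists had no member past the threshold. The lists cover 5245 of the genes tested.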

How the data were processed

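RNA of 9 samples was hybridised to Affymetrix Mouse Gene ST arrays, 3 per group. The authors deposited log2 values per probe set after background correction, normalisation and summarisation by RMA (version not given in the sources used). Array medians ran from 4.47 to 4.59, no arrays were identical, and the number of arrays limits the precision. Groups came from the sample titles. limma 3.58.1 in R 4.3.3 was fitted to all 9 arrays with 3 group means, and knock-down was compared with wild type, both with TNF-α, with p-values adjusted by the Benjamini-Hochberg method over the 23410 probe sets with an annotated gene. Annotation named 1 symbol for 21789 probe sets, several for 1621 and none for 12147. A gene was represented by its probe set with 1 symbol and the highest mean over the arrays. The fit was tested on simulated data.

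The rule for named genes took Med17, Cxcl10, Il6, Cxcl2 and Nfkbia, the 20 largest increases and 12 largest decreases without overlap (predicted genes counted only), up to 6 called members per direction of each list with at least 2, and the 5 raised genes with the highest knock-down mean. This rule, the comparison and the 111 gene lists were chosen with earlier results of these data known, and exceptions are marked. The result of 1 list is not reported here. The methods call the samples of a group independent. Deviations of knock-down and wild-type arrays with the same replicate number in their titles correlated at 0.147, 0.274 and 0.465 (pairs of unlike number at -0.392 to 0.16), so the numbers were taken as pairs and a second fit took the replicate number as a block. Other alternatives left out each array in turn, centred or quantile-normalised arrays, and varied the filter, the weights and the variance model. Promoter windows came from RefSeq on GRCm38.p6 and were matched by symbol for 15614 of 19938 genes. Versions were Python 3.11.15, pandas 2.3.3 and matplotlib 3.10.9.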

Additional observations from a re-analysis of the deposited data

How the results depend on the processing

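Against 1395 called probe sets (786 higher, 609 lower) and 706 raised and 553 lowered genes, leaving out 1 array gave 738 to 1106 probe sets, 424 to 659 higher and 314 to 447 lower, and 377 to 590 raised and 296 to 411 lowered genes. Of 354 named genes past the threshold, 194 kept their call in each of those fits and 160 lost it in at least 1. With the replicate block 2108 probe sets passed (952 lower), with 866 lowered genes, and among the 354 named genes the block ended the calls of *Canx*, *Mnat1*, *Nrg2*, *Ndufb6* and *Msx1* and no other. Array quality weights gave 2459 probe sets (1320 higher, 1139 lower), 1192 raised and 1024 lowered genes. With all deposited probe sets in the test 424 genes were raised and 332 lowered. A requirement of at least 1.5-fold left 738 probe sets (394 higher, 344 lower), 352 raised and 318 lowered genes. With arrays centred on their medians 68.8% of the called probe sets were higher. The 6 compared arrays alone gave 1048 probe sets, quantile normalisation 1441, probe sets with 1 symbol 1345, the test without dim probe sets 1584 and a variance trend 1422. The difference of *Med17* lay between -1.70 and -1.58 and passed under each alternative. 2 differences within the spread of the arrays changed sign. That of *Nfkbia* was 0.03 with centred arrays, 0.01 with weights, and between -0.17 and 0.08 without 1 array, and that of *Cxcl2* was 0.07 with weights and between -0.31 and 0.23 without 1 array, highest without wild-type replicate 3. For these shifts the cause was not tested, apart from fewer samples or another number of probe sets where the alternative itself sets it.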

Other observations

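Energy metabolism changed in single genes. Of 30 genes of glycolysis and the response to low oxygen 3 rose and 3 fell. *Egln3*, an oxygen-sensing prolyl hydroxylase, rose from a mean of 3.55 to 5.08 (adjusted p = 0.0039, limma) and *Pfkfb4*, a regulator of glycolysis, from 6.14 to 6.94 (adjusted p = 0.0019). *Ldhb*, a lactate dehydrogenase chain, fell from 7.75 to 5.93 (adjusted p = 0.0019), *Bnip3*, a mitochondrial death protein, from 6.53 to 5.57 (adjusted p = 0.0088, with a difference of -0.26 and an adjusted p of 0.32 in its other probe set) and *Pdk1*, an inhibitor of pyruvate dehydrogenase, from 6.18 to 5.31 (adjusted p = 0.011). *Mt2*, a zinc-binding metallothionein, fell by 1.42 (adjusted p = 0.0024) and *Fads3*, of the fatty acid desaturase family, rose by 0.94 (adjusted p = 0.0022).

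Transporters and glycan enzymes held genes of both directions. Of 349 solute carriers 12 rose (3.44%, against 3.54% over all genes) and 14 fell (4.01%, against 2.77%). In that list 4 rose without wild-type array 1, and 8 fell without wild-type array 2 or knock-down array 3. With the replicate block 19 solute carriers rose and 20 fell. *Slc7a2*, a transporter of cationic amino acids, fell from 9.46 to 7.27 (adjusted p = 9.5e-05) and *Slc1a3*, a glutamate transporter, from 9.67 to 7.93 (adjusted p = 0.0026), whereas *Slc22a23*, of the organic ion transporter family, rose from 4.75 to 6.13 (adjusted p = 0.00071). Of 77 galactosyl- and sialyltransferases and related enzymes 8 fell (10.4%) and 5 rose (6.49%), and the raised count was 1 without wild-type array 1 or knock-down array 2. *Galnt13*, which starts mucin-type sugar chains, fell from 6.45 to 4.01 (adjusted p = 0.00013), and *B3gnt2*, which extends lactosamine chains, rose from 5.94 to 6.77 (adjusted p = 0.0073).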
